A study of Mus musculus with 15 samples.

Results

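Choline uptake and phosphatidylcholine synthesis were followed through 10 mouse genes in perigonadal fat, the depot beside the gonads: the choline transporter genes Slc5a7, Slc44a1 and Slc44a2, the choline kinase genes Chka and Chkb, the cytidylyl transferase genes Pcyt1a and Pcyt1b, the phosphotransferase genes Chpt1 and Cept1, and the methyltransferase gene Pemt. They were taken from the deposited table by Entrez ID, and all 10 were found among its 35794 IDs. Slc5a7 was chosen on its measured level, which an earlier look at these libraries had shown to be higher in obese than in lean fat, so its values are given as a description with no test. The other 9 were taken for their place in the pathway.

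All animals were C57BL/6 mice, 14 weeks old, and the labels give no sex and no genotype change. Lean mice ate chow throughout. Obese mice ate a 60% high-fat diet from 8 weeks of age until they were killed together with the weight loss mice, which ate it for 5 weeks and then chow for 1 week. Poly(A) RNA was sequenced from 5 lean, 5 obese and 4 weight loss libraries, which the design text calls independent samples, with 13924770 to 33807887 counts each; a further weight loss library held 230 counts and was not used. Levels are CPM (counts per 1000000, scaled for library composition), given as mean ± SD, and differences are log2 fold changes with their standard errors, fitted by edgeR (quasi-likelihood test), with Benjamini-Hochberg adjustment over the 15208 genes that passed a filter on low counts and a threshold of 0.05. In whole tissue, fewer cells of a type and less RNA per cell cannot be told apart. Adipocyte markers were abundant in every library, with Lpl, which encodes lipoprotein lipase, between 11680 and 19270 CPM. Epididymis markers, from an organ that this depot adjoins in males, summed to between 8.05 and 7451 CPM per library, with lean replicate 1 and obese replicates 2, 4 and 5 the richest.

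Phosphatidylcholine is the main phospholipid of cell membranes and of the monolayer around lipid droplets. Most cells take up choline through transporters, phosphorylate it with a choline kinase, activate the product with CTP in the step that usually limits the rate, and join it to diacylglycerol. A separate route, best known in liver, methylates phosphatidylethanolamine. Slc5a7 encodes the high-affinity, sodium-coupled choline transporter best known in cholinergic nerve endings, whereas Slc44a1 and Slc44a2 encode choline transporter-like proteins found in many tissues.

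The promoter of Slc5a7, whose level differed most between groups, is shown beside those of Slc44a2, a carrier gene whose group ranges all overlapped, and of Pcyt1a, the gene of the rate-limiting step. Each sequence is the 250 bases before an annotated start on GRCm38.p6, the build also called mm10, from RefSeq, written 5′ to 3′ on the gene's strand. All 10 genes had at least 1 such window, and for genes with several the most upstream is printed. Capitals mark matches, on either strand, to GGGCGG (the GC box), CCAAT (the CCAAT box), TATAAA (the TATA box), CACGTG (the E-box), TCACCCCAC (a sterol regulatory element), TGACGTCA (the cAMP response element) or TTATGTAA (the D-box); matches may overlap.
Slc5a7, chr17:54299035-54299284, minus strand: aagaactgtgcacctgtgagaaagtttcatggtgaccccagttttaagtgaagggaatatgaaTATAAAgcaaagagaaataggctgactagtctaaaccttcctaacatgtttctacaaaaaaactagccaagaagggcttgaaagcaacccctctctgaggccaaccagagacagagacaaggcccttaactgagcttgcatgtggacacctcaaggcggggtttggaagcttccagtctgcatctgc
Slc44a2, chr9:21320469-21320718, plus strand: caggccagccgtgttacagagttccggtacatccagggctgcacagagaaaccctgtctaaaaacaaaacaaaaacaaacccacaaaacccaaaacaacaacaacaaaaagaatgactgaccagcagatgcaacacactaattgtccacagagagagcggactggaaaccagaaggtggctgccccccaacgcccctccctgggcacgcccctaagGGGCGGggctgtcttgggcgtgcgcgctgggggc
Pcyt1a, chr16:32430671-32430920, plus strand: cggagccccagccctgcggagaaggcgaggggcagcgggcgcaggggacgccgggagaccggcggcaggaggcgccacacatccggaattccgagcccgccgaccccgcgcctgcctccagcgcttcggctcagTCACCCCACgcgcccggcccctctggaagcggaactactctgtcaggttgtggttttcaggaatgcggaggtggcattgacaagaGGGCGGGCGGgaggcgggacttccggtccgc

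The Slc5a7 window held 1 CpG dinucleotide and 45.6% G and C, against medians of 6 CpG and 52.4% over 32817 promoter windows of the same length. Only 7.87% of those windows held fewer CpG. The Slc44a2 window held 9 CpG and the Pcyt1a window 28, which exceeded 92.4% of all windows. The TATAAA letters of the Slc5a7 window occurred in 12.4% of windows, the GGGCGG letters of Slc44a2 and Pcyt1a in 32.7%, and the TCACCCCAC letters of Pcyt1a in 0.497%. In Slc5a7 the TATAAA letters lie nearer the upstream end of the window than the annotated start. No binding was measured, and a match describes letters only.

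Slc5a7 was near the limit of detection in lean fat, present in every obese library and low again after weight loss. Its reads numbered 8, 2, 0, 0 and 0 in lean replicates 1 to 5, which gave 0.357, 0.142, 0, 0 and 0 CPM. The libraries at 0 allow up to 0.136, 0.201 and 0.213 CPM, the level of 3 counts, from counting error only.
In obese fat the 5 replicates held 143, 365, 124, 158 and 318 reads, or 7.01, 10.6, 6.73, 8.27 and 11.2 CPM. The weight loss replicates held 12, 2, 27 and 1 reads, or 0.678, 0.102, 1.22 and 0.0534 CPM. The lowest obese library lay above the highest lean and weight loss libraries, while the lean and weight loss ranges overlapped, with weight loss replicates 1 and 3 above all lean libraries.
Group means were 0.0997 ± 0.156 CPM (SD, n = 5) in lean, 8.76 ± 2.05 CPM (SD, n = 5) in obese and 0.513 ± 0.550 CPM (SD, n = 4) in weight loss fat. On the log2 scale obese fat was 6.25 ± 0.90 above lean fat, weight loss fat differed from obese fat by -4.06 ± 0.83, and from lean fat by 2.19 ± 0.92. These differences share libraries with the comparison for which the gene was chosen. Lean replicate 1 held 8 of the 10 lean reads, and without it the difference was 7.87 ± 1.00 for obese and 3.81 ± 1.08 for weight loss against lean. With all lean libraries but without weight loss replicate 3, weight loss fat lay 1.28 ± 0.98 above lean fat. Slc5a7 passed the filter on low counts through its obese libraries.

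**Figure D1:**
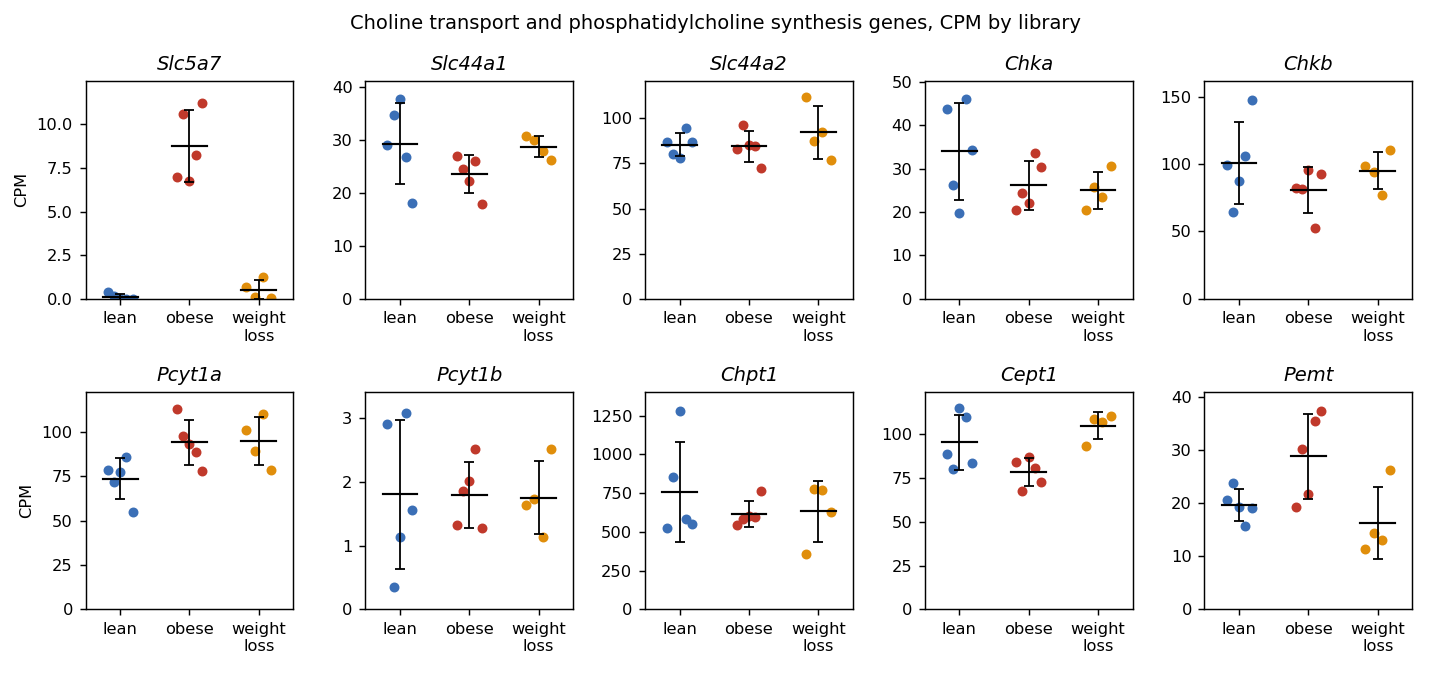
CPM of the 10 genes in lean (n = 5), obese (n = 5) and weight loss (n = 4) fat, with 1 point per library, a horizontal bar at the mean and whiskers of 1 SD. Slc5a7 lay between 6.73 and 11.2 CPM in obese fat and at 1.22 CPM or less elsewhere, while the groups of the other genes overlapped except for Cept1 between obese and weight loss fat.

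Chat, Slc18a3 and Chrna3, markers of cholinergic neurons, were nearly absent while Slc5a7 was high. Chat, which encodes the enzyme that makes acetylcholine, had 1 read over all 14 libraries, and Slc18a3, the vesicular acetylcholine transporter gene, had 7 reads and at most 0.142 CPM. Chrna3, a nicotinic receptor subunit gene, had 10 reads in all and at most 0.116 CPM. Isl1, which other cell types also express, ran from 0.134 to 7.68 CPM and was at most 1.90 CPM in obese fat.
Of 14 general neuron and nerve fibre markers, 7 stayed under 1 CPM everywhere. Their summed level was 17.5 to 23.1 CPM in lean, 33.6 to 41.9 CPM in obese and 21.2 to 36.5 CPM in weight loss fat, and the most abundant was Uchl1, a ubiquitin hydrolase gene, at 8.94 to 11.5, 20.1 to 29.0 and 12.2 to 26.2 CPM. The 9 macrophage markers summed to 381 to 796 CPM in lean, 828.5 to 1290 CPM in obese and 501 to 1219 CPM in weight loss fat. The part of these cells in the Slc5a7 level was not tested.
Obese replicate 1, with 17.3 CPM of epididymis markers in all, held Slc5a7 at 7.01 CPM, and lean replicate 1, with 3041 CPM of them, at 0.357 CPM. Among obese libraries the 3 with the highest summed CPM of these markers, replicates 2, 4 and 5, had the highest Slc5a7, at 10.6, 8.27 and 11.2 CPM. Without the 4 libraries richest in these markers the obese against lean difference of Slc5a7 was 7.48 ± 1.26, and weight loss fat lay 3.77 ± 1.21 above lean fat. Only obese replicates 1 and 3 remained of the obese group. Lean replicate 1, with most of the lean Slc5a7 reads, was among those left out, and leaving out it alone gave 7.87 and 3.81. A further fit took the mean log2 CPM of these markers, not their summed CPM, as a covariate. There the Slc5a7 differences were 6.00 ± 0.86 for obese against lean and -3.14 ± 0.86 between weight loss and obese fat. This mean is what the other covariate fits call the epididymis level.

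The 6 genes whose profile over the 14 libraries was nearest to that of Slc5a7 were Mxra8, Chga, Trp53inp2, 1700047G03Rik, Anxa6 and Mest. Likeness was the root mean square difference of log2 CPM after each gene was standardised, and it ran from 0.249 SD units for Mxra8 to 0.340 for Mest. The libraries share their depth and groups, so the measure is only a description. All 6 were higher in each obese library than in any other library used, as Slc5a7 was, so this split follows largely from how they were picked.
Mxra8, a matrix and adhesion protein gene, stood at 127 ± 8.2 CPM in lean (SD, n = 5), 200.4 ± 9.9 CPM in obese (SD, n = 5) and 147 ± 12 CPM in weight loss fat (SD, n = 4). Chga, which encodes chromogranin A of secretory granules, ran from 0.181 to 1.25 CPM in lean, 3.07 to 5.498 CPM in obese and 0.214 to 2.20 CPM in weight loss fat. 1700047G03Rik went from a mean of 2.29 CPM in lean to 53.5 CPM in obese and 4.87 CPM after weight loss, and Trp53inp2, an autophagy-related gene, from 323 to 995 and 387 CPM.
Of the other 9 genes, Pcyt1a was the closest, at 0.955 SD units and in place 1977 of 15207 genes, and Cept1 the farthest, at 1.84 SD units and place 14415.

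**Figure D2:**
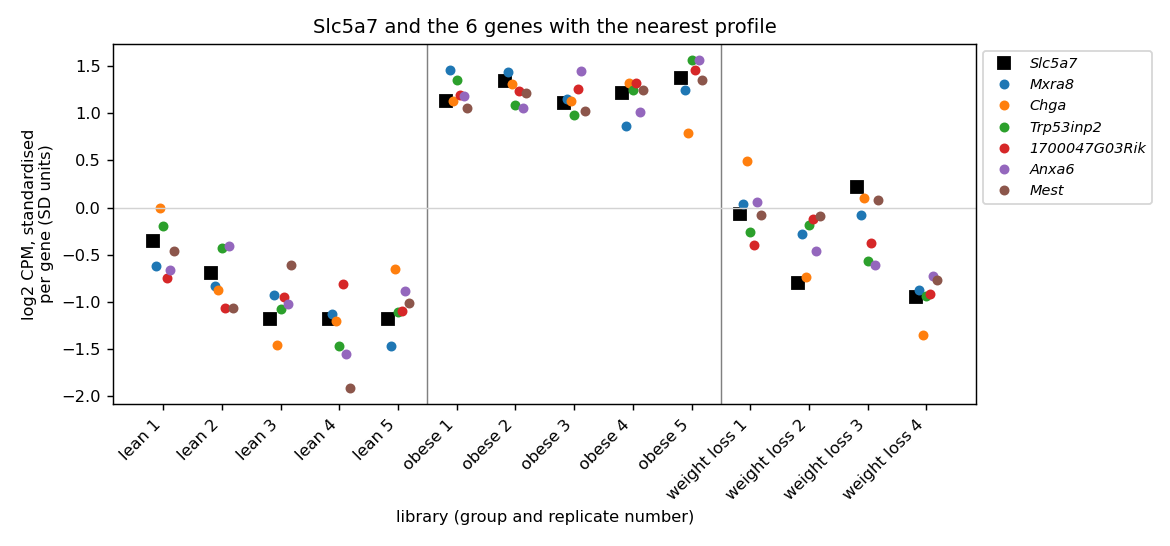
Log2 CPM of Slc5a7 (squares) and of its 6 nearest genes (circles) in the 14 libraries, each standardised to mean 0 over the libraries and shown in SD units. All points of the 5 obese libraries lie above 0.5, and the lean and weight loss points lie at or below it.

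Among the 9 genes other than Slc5a7, no difference passed the test in any comparison. For obese against lean 0 of 9 were called by edgeR, where 9.71% of all genes were, and 3 had an unadjusted p under 0.05 (Pcyt1a, Cept1 and Pemt). Between weight loss and obese fat 0 of 9 were called, against 1.62% of all genes, and 2 had an unadjusted p under 0.05 (Cept1 and Pemt). Weight loss against lean fat also gave 0 of 9, against 0.0329% of all genes, and 1 had an unadjusted p under 0.05 (Pcyt1a). An unadjusted p under 0.05 was reached by 24.8%, 14.3% and 11.4% of all genes in these comparisons, so that the counts of 3, 2 and 1 of 9 were close to those of all genes.
CPM ranges that did not overlap were found for 0 of 9 between obese and lean, 1 of 9 between weight loss and obese and 0 of 9 between weight loss and lean fat, beside 10.3%, 6.65% and 2.29% of all genes.
The median log2 difference of the 9 was -0.28 for obese against lean, where 2 of 9 were positive and the median of all genes was -0.02. Weight loss fat gave 0.035 against obese and -0.05 against lean fat, beside medians of 0.02 and 0.0033 over all genes. DESeq2's Wald test and limma-voom with sample quality weights each called 2 of the 9 between weight loss and obese fat, Cept1 and Pemt, where they called 4.56% and 3.5% of all genes.

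**Figure D3:**
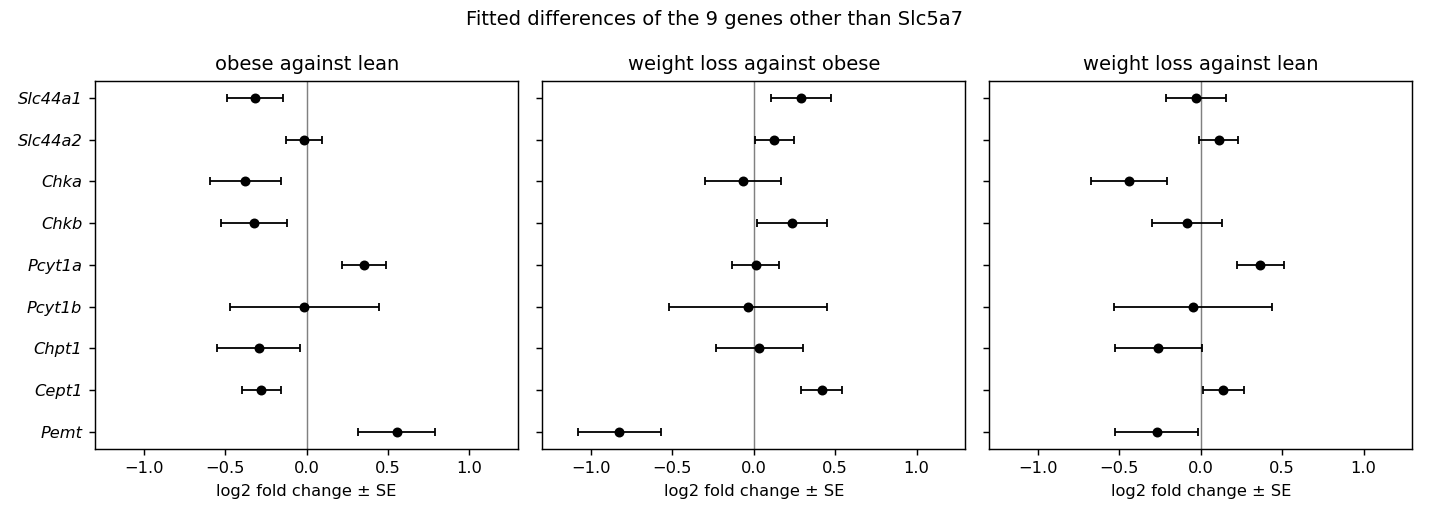
Fitted log2 fold changes (points) with standard errors (bars) of the 9 genes other than Slc5a7 in the 3 comparisons. Values run from -0.82 to 0.55, the lowest being Pemt for weight loss against obese fat and the highest Pemt for obese against lean fat.

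Slc44a1 and Slc44a2, the carriers used by many cell types, had ranges that overlapped between all 3 groups. Slc44a1 ran from 18.2 to 37.8 CPM in lean libraries (median 29.0), from 17.9 to 26.95 CPM in obese (median 24.5) and from 26.3 to 30.8 CPM in weight loss libraries (median 28.9). Its log2 difference was -0.32 ± 0.17 for obese against lean (adjusted p = 0.283) and 0.29 ± 0.18 for weight loss against obese (adjusted p = 0.534).
Slc44a2 varied little among replicates, with a coefficient of variation of 7.59% in lean, 9.93% in obese and 15.9% in weight loss fat. It stood at 85.4 ± 6.5 CPM in lean (SD, n = 5), 84.4 ± 8.4 CPM in obese (SD, n = 5) and 92.2 ± 15 CPM in weight loss fat (SD, n = 4). Its obese against lean difference was -0.02 ± 0.11 on the log2 scale.

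The choline kinases, which phosphorylate choline on entry to the pathway, were most spread among the lean libraries, with coefficients of variation of 32.9% for Chka and 30.3% for Chkb. Chka stood at 43.8, 26.2, 19.8, 46.1 and 34.3 CPM in lean replicates 1 to 5, and between 20.4 and 33.7 CPM in obese and 20.4 and 30.6 CPM in weight loss fat. Lean replicates 1, 4 and 5 were above every obese and weight loss library, and lean replicate 3 below all of them. The log2 difference was -0.38 ± 0.22 for obese against lean (adjusted p = 0.322) and -0.44 ± 0.23 for weight loss against lean (adjusted p = 0.498).
Chkb ran from 64.5 to 147.8 CPM in lean, 52.3 to 95.5 CPM in obese and 77.2 to 110 CPM in weight loss fat, with log2 differences between -0.32 and 0.23 over the 3 comparisons. The obese against lean value of -0.32 was -0.14 ± 0.18 without lean replicate 5, and the weight loss against obese value of 0.23 was 0.11 ± 0.20 without obese replicate 4. The lncRNA entry Gm44502, at a mean of 9.94 CPM, overlaps Chkb and covers its neighbour Cpt1b, and how reads were shared between overlapping entries is not given in the sources used here.

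Pcyt1a and Pcyt1b encode the CTP:phosphocholine cytidylyl transferases. Pcyt1a stood at 78.3, 71.9, 77.2, 86.0 and 55.0 CPM in lean replicates 1 to 5 and at 113, 97.9, 93.3, 88.6 and 77.8 CPM in obese replicates 1 to 5. In weight loss fat it stood at 101, 89.4, 110 and 78.6 CPM. Of the obese libraries 4 lay above every lean library, and only obese replicate 5 fell within the lean range, as did weight loss replicate 4.
The means were 73.7 ± 12 CPM in lean (SD, n = 5), 94.1 ± 13 CPM in obese (SD, n = 5) and 94.8 ± 14 CPM in weight loss fat (SD, n = 4). The log2 difference was 0.35 ± 0.14 for obese against lean (edgeR adjusted p = 0.121) and 0.36 ± 0.14 for weight loss against lean (edgeR adjusted p = 0.363). Both comparisons use the same lean libraries. Weight loss and obese fat differed by 0.01 ± 0.14.
Pcyt1b was low throughout, at 0.355 to 3.08 CPM in lean, 1.27 to 2.51 CPM in obese and 1.13 to 2.51 CPM in weight loss fat. With 163, 211 and 135 reads per group its standard errors, of 0.46 to 0.49 on the log2 scale, were the widest of the 9.

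Chpt1 and Cept1 encode the enzymes that join the activated choline to diacylglycerol, Chpt1 for choline and Cept1 for choline and ethanolamine. Cept1 had its lowest mean in obese fat. It stood at 88.4, 80.0, 114.7, 109.5 and 83.2 CPM in lean replicates 1 to 5, at 84.1, 67.6, 86.6, 80.8 and 72.8 CPM in obese replicates 1 to 5, and at 93.2, 108, 107 and 110 CPM in weight loss replicates 1 to 4. All 4 weight loss libraries lay above all 5 obese libraries, and lean libraries overlapped with both groups.
Cept1 was the 1 of the 9 genes with such a gap. Its log2 difference of weight loss against obese fat was 0.42 ± 0.13, with an adjusted p of 0.126 by edgeR, 0.04999 by DESeq2's Wald test and 0.04525 by limma-voom with sample quality weights. In a fit that took the epididymis level as a covariate it was 0.27 ± 0.15, and without the 4 libraries richest in those markers 0.29 ± 0.18. Obese against lean gave -0.28 ± 0.12 (edgeR adjusted p = 0.160). Dennd2d and Dram2, at means of 56.5 and 54.5 CPM, overlap Cept1 in RefSeq, and it is not stated whether counting used strand.
Chpt1 varied most among lean libraries. It ran from 522 to 1278 CPM in lean fat, with replicate 3 at 1278 CPM and replicate 2 at 852 CPM above the rest, from 544 to 762 CPM in obese and from 356 to 775 CPM in weight loss fat. Its log2 difference was -0.30 ± 0.25 for obese and -0.26 ± 0.27 for weight loss against lean fat, and 0.03 ± 0.27 between weight loss and obese fat, and none passed the test. Without lean replicate 3 the obese against lean value was -0.02 ± 0.21 and that of weight loss against lean 0.01 ± 0.23. Sycp3 overlaps Chpt1 in the annotation and stood at a mean of 34.3 CPM.

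Pemt encodes the enzyme that methylates phosphatidylethanolamine to phosphatidylcholine. It stood at 20.6, 23.8, 19.2, 15.6 and 19.0 CPM in lean replicates 1 to 5, at 19.3, 30.3, 21.7, 35.6 and 37.3 CPM in obese replicates 1 to 5, and at 11.3, 14.3, 13.1 and 26.3 CPM in weight loss replicates 1 to 4. Obese replicates 2, 4 and 5 were above every lean library and obese replicates 1 and 3 within the lean range, while 3 of the 4 weight loss libraries were below every lean library.
Means were 19.6 ± 2.9 CPM in lean (SD, n = 5), 28.8 ± 8.1 CPM in obese (SD, n = 5) and 16.3 ± 6.8 CPM in weight loss fat (SD, n = 4). The log2 difference was 0.55 ± 0.24 for obese against lean (edgeR adjusted p = 0.163) and -0.82 ± 0.26 for weight loss against obese (edgeR adjusted p = 0.138). Without weight loss replicate 4, the weight loss library with the highest Pemt, the latter was -1.17 ± 0.23, with an edgeR adjusted p of 0.0275. Over all single libraries left out it ran from -1.17 to -0.69. The edgeR adjusted p was 0.270 without obese replicate 4 and 0.302 without weight loss replicate 3.
The obese libraries with high Pemt were those with the highest summed CPM of epididymis markers. The sums were 7451, 4012 and 5807 CPM in obese replicates 2, 4 and 5, against 17.3 and 407 CPM in replicates 1 and 3. By the mean log2 CPM of these markers, obese replicate 3, at 2.567, was close to obese replicate 4, at 2.654. Obese replicates 2 and 5 stood at 6.155 and 5.934 and obese replicate 1 at -1.359. Lean replicate 1, at 3041 CPM of these markers, had Pemt at 20.6 CPM, within the range of the other lean libraries. The part of epididymis in the Pemt level was not tested beyond these values. Without the 4 richest libraries the Pemt difference was 0.08 ± 0.32 for obese against lean and -0.33 ± 0.31 for weight loss against obese. That fit kept only obese replicates 1 and 3, which were also the obese libraries with the lowest Pemt. A part of epididymis and the choice of libraries cannot be told apart in it. In a fit that took the epididymis level as a covariate the differences were 0.30 ± 0.27 and -0.46 ± 0.31. The 8 hepatocyte markers, listed because Pemt is best known in liver, summed to 3947 to 6593 CPM in lean, 1502 to 3011 CPM in obese and 2233 to 5997 CPM in weight loss fat, nearly all from Cyp2e1, which fat also expresses, at 3929 to 6581, 1486 to 2995 and 2225 to 5982 CPM.

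**Figure D4:**
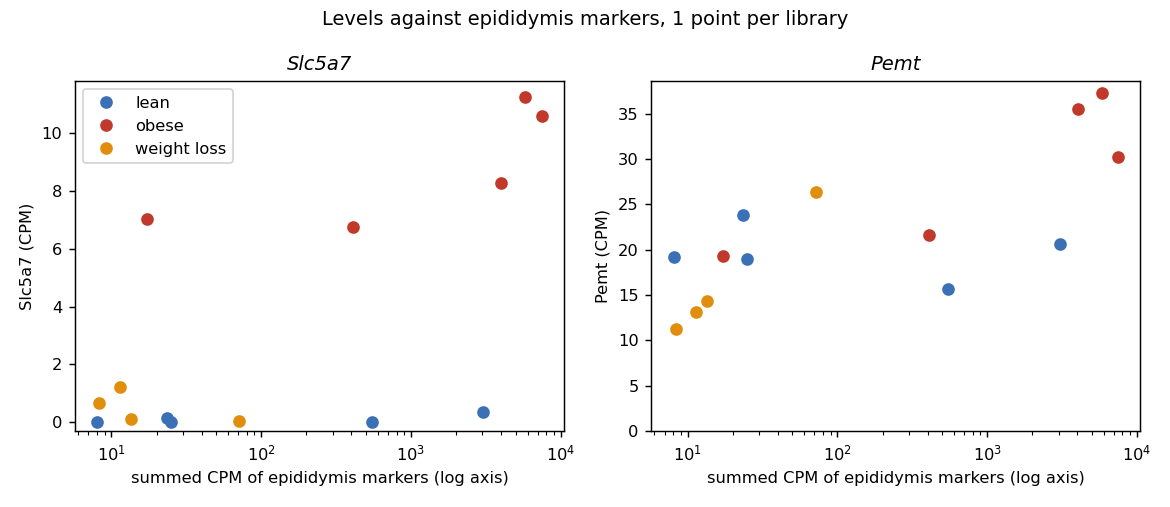
CPM of Slc5a7 (left) and Pemt (right) against the summed CPM of epididymis markers on a log axis, with 1 point per library coloured by group. Slc5a7 was at 6.73 CPM or more in all obese libraries over the whole range of the markers, whereas Pemt was at 30.3 CPM or more only in the 3 obese libraries with marker sums from 4012 to 7451 CPM.

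To set the genes against one another, CPM was divided by the length of their annotated exons in kilobases. In lean fat Chpt1 was highest, at 91.0 ± 38 CPM per kilobase (SD, n = 5). Chkb followed at 33.0 ± 9.99 (SD, n = 5) and Cept1 at 30.5 ± 5.1 CPM per kilobase (SD, n = 5), and their ranges overlapped. Pcyt1a, Slc44a2 and Pemt lay close together at 9.94, 9.84 and 9.34 CPM per kilobase, then came Slc44a1 at 4.22 and Chka at 2.83, which overlapped, then Pcyt1b at 0.337 and Slc5a7 at 0.0177.
In obese fat Slc5a7 reached 1.55 ± 0.36 CPM per kilobase (SD, n = 5), above Pcyt1b at 0.335 and with a range that overlapped that of Chka, at 2.18. After weight loss it was again last, at 0.0909 CPM per kilobase, with a range that overlapped that of Pcyt1b. Exon length was the union of the exons of all annotated transcripts, so a gene that uses few of those transcripts is understated.
Within each step the share of the leading gene had ranges that overlapped between the groups. Chkb gave 91.9% ± 2.4 of the choline kinase level per kilobase in lean (SD, n = 5), 91.9% ± 3.5 in obese (SD, n = 5) and 93.7% ± 0.93 in weight loss fat (SD, n = 4). Pcyt1a gave between 95.1% and 99.3% of the cytidylyl transferase level in every library. Chpt1 gave 73.5% ± 6.5 of the phosphotransferase level in lean (SD, n = 5), 74.5% ± 3.5 in obese (SD, n = 5) and 68.2% ± 6.6 in weight loss fat (SD, n = 4).

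Around these genes, 71 others that supply, rebuild or break down phosphatidylcholine or use choline were listed, and 61 passed the filter. For obese against lean 2 of the 61 rose and 5 fell, beside 5.86% of all genes higher and 3.85% lower. From obese to weight loss fat 4 rose and 0 fell by edgeR, beside 0.736% and 0.881% of all genes. Weight loss fat had 0 calls against lean fat by edgeR, DESeq2 or limma-voom. Over all genes edgeR called 0.0329%, DESeq2 243 genes and limma-voom 1 gene. At an unadjusted p under 0.05 weight loss against lean fat had 9 of 61 by edgeR, beside 11.4% of all genes. The median log2 difference of the 61 was -0.04, 0.01 and -0.06 in the same order. Without the 4 libraries richest in epididymis markers 1 of the 61, Gpat3, was called for obese against lean and 0 for weight loss against obese. Over all genes the calls fell as well, from 1477 to 125 and from 246 to 20. This fit had 10 libraries and kept only obese replicates 1 and 3 of the obese group. Most of the differences were about as large with wider standard errors: Gpat4 gave -0.90 ± 0.18, Mat2a -0.44 ± 0.14 and Chdh -0.73 ± 0.24 for obese against lean, and Mat2a 0.57 ± 0.14, Gpat4 0.65 ± 0.18 and Lpin1 0.55 ± 0.15 from obese to weight loss fat. Others moved more. For obese against lean Slc22a2 gave 1.92 ± 0.54 in place of 2.33, and Agpat4 0.93 ± 0.26 in place of 0.64. From obese to weight loss fat Gpat3 gave 0.72 ± 0.17 in place of 0.82. With the epididymis level as a covariate 0 of the 61 were called between weight loss and obese fat, where 31 of all genes were. The 4 genes called there without the covariate had smaller differences with it. Gpat3 gave 0.67 ± 0.17, Gpat4 0.59 ± 0.17, Lpin1 0.43 ± 0.12 and Mat2a 0.52 ± 0.12.
The calls lay in 3 of the 7 lists. In the diacylglycerol supply list, of 10 genes tested, 3 fell and 1 rose in obese fat. Gpat3 and Gpat4, acyltransferases that begin glycerolipid synthesis in the endoplasmic reticulum, went from 338.5 ± 40.5 to 150.8 ± 15.6 CPM (SD, n = 5 each) and from 388 ± 43.8 to 217 ± 16.7 CPM (SD, n = 5 each), with log2 differences of -1.17 ± 0.12 and -0.84 ± 0.12. Gpam, their mitochondrial counterpart, fell by 1.37 ± 0.38 on the log2 scale (edgeR adjusted p = 0.0353), and the call was lost when any of 5 single libraries was left out (adjusted p from 0.0561 to 0.0841), among them lean replicate 2, without which the value was -0.87. Agpat4, which acylates lysophosphatidic acid, rose by 0.64 ± 0.19 and lay at the threshold (edgeR adjusted p = 0.049, between 0.0523 and 0.109 when any of 10 single libraries was left out). It was named after its value was seen.
After weight loss 3 genes of this list rose against obese fat. Gpat3 rose by 0.82 ± 0.13, Gpat4 by 0.63 ± 0.12 and Lpin1, a phosphatidate phosphatase gene whose product is diacylglycerol, by 0.58 ± 0.10. The call of Gpat4 was lost without obese replicate 3 (edgeR adjusted p = 0.0562) and without weight loss replicate 4 (edgeR adjusted p = 0.0648). Agpat2, a lipid synthesis gene known to be active in adipocytes, was listed at 0 in all 14 libraries, which can be a failed estimate.

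In the list of choline oxidation and methyl donors, 2 of 8 tested genes fell in obese fat and 1 rose after weight loss. Chdh, the choline dehydrogenase that starts the oxidation of choline to betaine, stood at 77.6 ± 12 CPM in lean (SD, n = 5) and 44.6 ± 6.2 CPM in obese fat (SD, n = 5), a log2 difference of -0.80 ± 0.16 (edgeR adjusted p = 0.0063). Mat2a, which encodes the enzyme that makes S-adenosylmethionine, the methyl donor of Pemt, fell from 349 ± 28 to 261 ± 11 CPM (SD, n = 5 each). After weight loss Mat2a rose to 388 ± 9.0 CPM (SD, n = 4), with log2 differences of -0.42 ± 0.08 and 0.57 ± 0.09 for both steps (edgeR adjusted p = 0.00578 and 0.00325). Both comparisons share the obese libraries.
Of 7 other choline carriers tested, 1 rose in obese fat. Slc22a2, an organic cation transporter gene, went from 0.643 ± 0.272 to 3.2 ± 0.736 CPM (SD, n = 5 each), a log2 difference of 2.33 ± 0.37 (edgeR adjusted p = 0.00169), and in weight loss fat it stood at 1.26 ± 0.433 CPM (SD, n = 4), a difference of -1.34 ± 0.38 from obese fat (adjusted p = 0.0999 by edgeR, 0.0181 by DESeq2's Wald test). The one with the highest mean CPM over all libraries, Slc22a3, stood at 104 ± 22 CPM in lean (SD, n = 5) and 111 ± 10 CPM in obese fat (SD, n = 5).

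**Figure D5:**
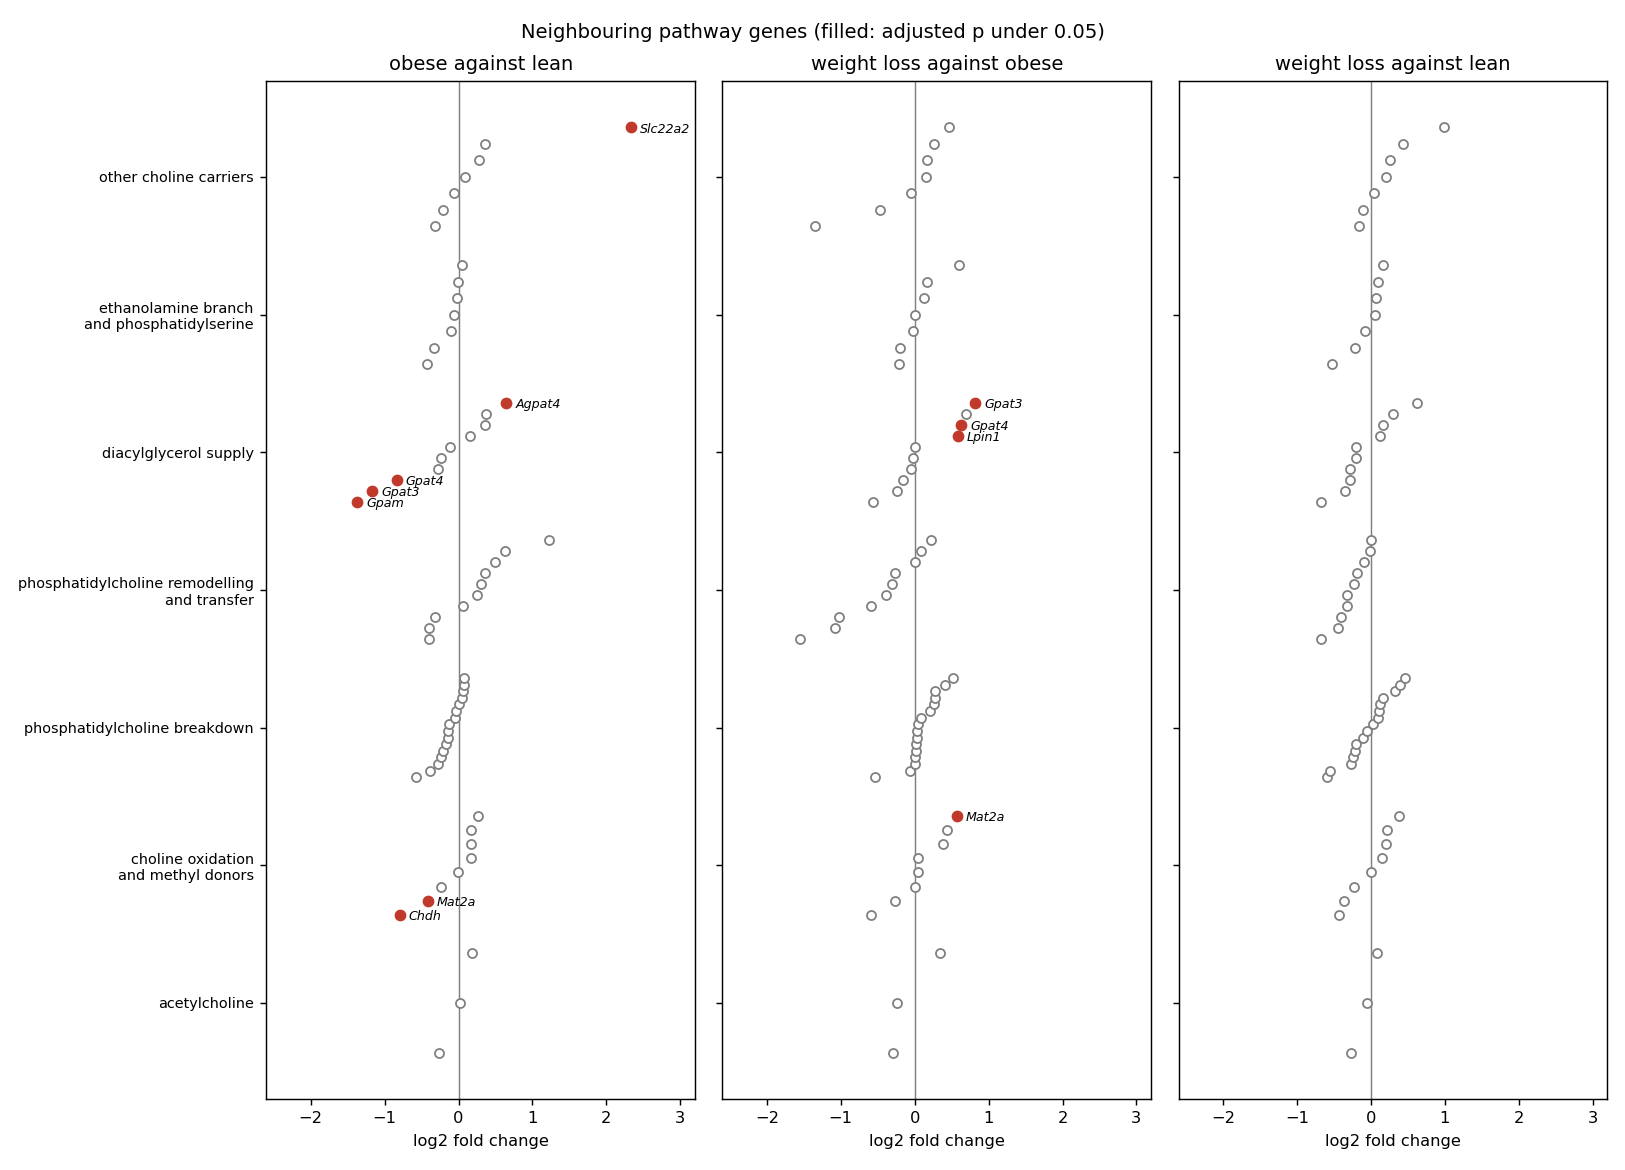
Log2 fold changes of 61 genes in 7 lists around phosphatidylcholine for the 3 comparisons, with 1 circle per gene and filled, named circles for an edgeR adjusted p under 0.05. The first panel (obese against lean) has 7 filled circles, the second (weight loss against obese) 4 and the last (weight loss against lean) 0.

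The other 4 lists had no call by edgeR in any comparison: the ethanolamine branch and phosphatidylserine (7 genes tested), remodelling and transfer of phosphatidylcholine (10), its breakdown (16) and acetylcholine (3). Of these 36 genes 2, 3 and 3 had an unadjusted p under 0.05 for obese over lean, weight loss over obese and weight loss over lean fat, beside 24.8%, 14.3% and 11.4% of all genes. The genes with the highest mean CPM over all 14 libraries, not set per length, were Pcyt2, Lpcat3, Plaat3 and Bche. Pcyt2, the ethanolamine counterpart of Pcyt1a, stood at 117 ± 18 CPM in lean (SD, n = 5), 92.7 ± 29 CPM in obese (SD, n = 5) and 81.0 ± 29 CPM in weight loss fat (SD, n = 4).
Lpcat3, which reacylates lysophosphatidylcholine, had log2 differences of 0.25 ± 0.11 for obese against lean and -0.26 ± 0.12 for weight loss against obese, with edgeR adjusted p of 0.161 and 0.322. Plaat3, a phospholipase of adipocytes, stood at 1005 ± 197 CPM in lean (SD, n = 5), 869 ± 153 CPM in obese (SD, n = 5) and 868 ± 150 CPM in weight loss fat (SD, n = 4). Bche, which encodes butyrylcholinesterase, had a log2 difference of 0.18 ± 0.20 for obese against lean (edgeR adjusted p = 0.634).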

How the data were processed

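Perigonadal fat of lean, obese and weight loss mice was measured by poly(A) RNA sequencing. The deposited table holds expected counts per Entrez ID, not normalized, with 34.8% of values not whole; the build was mm10 per the submitters' processing notes, with no aligner, counter or annotation named in the sources used here. Weight loss replicate 5 was left out by a minimum of 1000000 counts. Counts were rounded, filtered with filterByExpr (15208 genes), scaled by TMM and fitted in 1 model over the 3 groups with edgeR 4.0.16 in R 4.3.3 (glmQLFit, glmQLFTest, two-sided); standard errors are the fold change (log2) divided by the root of F. The test was checked on simulated data. Symbols came from RefSeq for 32919 IDs and GENCODE M21 for 24, and Pla2g16 was matched as Plaat3. No 2 libraries of a group agreed within sampling noise (lowest chi-square over degrees of freedom 40.8 in 26 pairs).

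The genes, lists and tests were chosen with earlier results of these data known. Named genes are the 10, up to 3 called genes per pathway list and comparison or else its most abundant gene, the 6 nearest to Slc5a7, and leading cell markers. Alternatives were other scalings, filters and tests (DESeq2 1.42.0, limma 3.58.1), covariates, a replicate block, an adjusted p of 0.01, and libraries left out. Labels do not state that equal replicate numbers share a litter or batch. Whether samples came from separate animals is not stated beyond the design text, so p-values measure the spread between these samples. Figures used Python 3.11.15 and matplotlib 3.10.9. A listed cell marker is not reported here.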

Additional observations from a re-analysis of the deposited data

Results flagged for a closer look

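Chpt1 in obese replicate 5 stood at 762 CPM, apart from the other 4 obese libraries at 544 to 604 CPM, and its gap to the nearest was 0.725 of the whole obese range. Of 30 sets of values looked at in this way, 1 in 20 would be picked by chance.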

How the results depend on the processing

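Of the 9 genes other than Slc5a7, 0 were called under every setting for obese against lean and weight loss against lean. Between weight loss and obese fat 2 were called by DESeq2's Wald test, 2 by limma-voom with sample quality weights, and 0 to 1 with single libraries left out. Pathway neighbours called (7 and 4) fell to 1 and 0 without the 4 libraries richest in epididymis markers, and the latter to 0 with the epididymis level as a covariate; these were chosen after seeing the data. Without the 4 libraries most differences kept their size with wider standard errors (Gpat4 -0.90 against -0.84, Mat2a 0.57 in both fits). For obese against lean Slc22a2 was 1.92 against 2.33 and Agpat4 0.93 against 0.64. With the covariate the 4 called differences between weight loss and obese fat were smaller, Lpin1 at 0.43 against 0.58. Genes called for obese against lean (1477) numbered 463 at an adjusted p of 0.01, 2260 by DESeq2, 676 with the covariate, 125 without the 4 libraries and 849 to 1673 with single libraries left out. The count for weight loss over obese (246) became 84, 691, 31, 20 and 141 to 265, and 533 with quality weights. That for weight loss over lean (5) became 0, 243, 2, 0 and 0 to 130, and 1 by limma-voom, 3 with quality weights and 0 with only the 2 groups. In deviations from their group means, 4 of 13 same-numbered pairs correlated above 0.1 and 3 of 14 libraries correlated best with their own number. These correlations cannot show whether equal replicate numbers pair the samples. The replicate block gave 2 genes for weight loss against lean. Small log2 differences changed sign. Between weight loss and obese fat, Chka was 0.2572 with the covariate, 0.2349 without the 4 libraries and -0.1858 to 0.0404 with single libraries left out. Chpt1 was -0.021 by limma-voom, -0.0414 with the block, -0.0962 with the covariate and -0.0774 to 0.2315 with single libraries left out. Pcyt1a was -0.0115 by upper quartile, -0.00177 unfiltered, -0.00349 at 1 CPM in 5 libraries, -0.0185 with quality weights, -0.0701 with the block, -0.0772 with the covariate, -0.1204 without the 4 libraries and -0.0676 to 0.0854 with single libraries left out. Pcyt1b was 0.3252 with the covariate, 0.0708 without the 4 libraries and -0.2631 to 0.1288 with single libraries left out. For obese against lean, Pcyt1b was 0.1853 by limma-voom, 0.0582 with quality weights, 0.1354 with the block, 0.1227 without the 4 libraries and -0.2855 to 0.2423 with single libraries left out, Slc44a2 -0.0684 to 0.00258 and Slc22a3 -0.0103 to 0.2063. Between weight loss and lean fat, Chkb was 0.0518 with the block and -0.239 to 0.0903 with single libraries left out, Chpt1 0.0106 with quality weights and -0.3863 to 0.0117, Pcyt1b 0.1494 by limma-voom, 0.1213 with the covariate, 0.1935 without the 4 libraries and -0.3343 to 0.1933, and Slc44a1 0.0206 with quality weights and -0.1601 to 0.0792. The cause was not tested. Depth limits Slc5a7 in lean and weight loss fat, at 0 to 27 reads, and Pcyt1b.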
